A study of Homo sapiens with 27 samples.

Results

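The human genes for aminoacyl-tRNA synthetases, the enzymes that attach each amino acid to its tRNA, were followed in prostate cancer cells with stable knockdown of CPSF1. The set was taken from the textbook family by gene symbol and held 39 of the 20268 gene symbols in the count table. It comprised 19 genes for enzymes that work in the cytosol, 16 for enzymes that work in mitochondria, 2 genes (GARS and KARS) whose products serve both compartments and 2 (AIMP1 and AIMP2) for scaffold proteins of the multi-synthetase complex. Membership rested on the symbol, with no threshold on a measured value, although the family was picked with earlier results of these data known. The symbols are those of the count table, in which AARS, KARS and the like are the older names of AARS1 and KARS1.

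Each synthetase recognises its tRNA and amino acid, activates the amino acid with ATP and passes it to the tRNA, which then carries it to the ribosome. Cytosolic and mitochondrial protein synthesis mostly use separate enzymes, and both kinds are encoded in the nucleus. Several cytosolic synthetases sit together with the AIMP scaffolds in the multi-synthetase complex, and transcription of many cytosolic synthetase genes is raised by ATF4 when amino acids run short. Mitochondria have no glutaminyl-tRNA synthetase of their own and make that tRNA through an amidotransferase. CPSF1 is the largest subunit of the complex that recognises the polyadenylation signal of nascent transcripts.

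Stranded RNA-seq of poly(A) RNA was performed on 27 libraries, 3 biological replicates in each of 9 groups. LNCaP is an androgen-sensitive line, LNCaP95 is an androgen-independent derivative of it, and 22Rv1 is a castration-resistant line from a xenograft. Cells of each line were infected with a lentivirus for a control hairpin (CTRL sh) or for a hairpin directed at CPSF1 (either CPSF1 sh1 or CPSF1 sh2), so every library, control included, came from puromycin-selected infected cells. The selected cells were expanded and seeded at 500000 per well, and RNA was taken after 72 h. The same basal medium with serum was used throughout, and it lacked phenol red for LNCaP95 alone, so line and medium cannot be told apart. The sources do not say whether replicates came from separate infections, and p-values here measure the spread between these samples.

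Libraries held 8515624 to 15904518 counts on genes, with a median of 11058723. Beyond counting error, libraries spread by 4.951% (LNCaP), 7.092% (LNCaP95) and 6.085% (22Rv1), as edgeR's coefficient of variation. The 2 hairpins formed 1 group in that fit, so this spread includes their difference as well as that between replicates. CPSF1 itself fell by 0.65 on the log2 scale in LNCaP, by 0.89 in LNCaP95 and by 0.50 in 22Rv1 with the hairpins pooled. All 9 prostate luminal markers examined were above 2 CPM (counts scaled to a common library size) in every library, and none of 3 basal markers was. The basal marker KRT14 still had a median of 4.77 CPM in LNCaP and 3.16 in LNCaP95, with lowest values of 1.26 and 1.67. The basal markers KRT5 and TP63 reached at most 0.38 CPM, and the immune genes PTPRC and CD3E at most 0.292 CPM. The stromal genes COL1A2 and DCN reached at most 0.37 and 1.36 CPM, each in 22Rv1. The macrophage marker CD68 was present at a low level and rose with the knockdown by 2.09 in LNCaP and 1.64 in LNCaP95 on the log2 scale. The endothelial gene VWF fell by 1.23 in LNCaP, where it was above 2 CPM in every library, and the stromal gene COL1A1 by 0.71 in LNCaP and 0.40 in LNCaP95, with -0.064 in 22Rv1, where it did not pass the test. The part of these genes in the results was not tested. All 39 synthetase genes passed the filter of more than 2 CPM in every library, with raw counts from 53 (SARS2) to 12255 (AARS), so the least expressed mitochondrial genes were measured with the least precision. In bulk samples, fewer cells of a type and less RNA per cell cannot be told apart.

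In control cells, cytosolic synthetase mRNAs were more abundant than mitochondrial ones. Levels between genes were compared as CPM per kilobase of exon (RPKM), which divides by the summed exon length of all annotated transcripts and so understates genes with many isoforms. The median over the 19 cytosolic genes was 61.3 RPKM in LNCaP, against 14.4 for the 16 mitochondrial genes and 11.7 over all genes tested. In LNCaP95 the same medians were 64.4, 12.6 and 11.9. In 22Rv1 they were 48.1, 17.9 and 11.2, which placed the classes closer together than in the other lines. AARS, the alanyl-tRNA synthetase, led with 191 ± 7.18 RPKM in LNCaP and 248 ± 3.23 in LNCaP95 (SD, n = 3), whereas EPRS, a single enzyme for glutamate and proline, led in 22Rv1 with 118 ± 1.18. IARS2, the mitochondrial isoleucyl enzyme, was the exception among mitochondrial genes and reached 91.2 ± 2.63, 130.2 ± 6.07 and 113 ± 0.569 RPKM in LNCaP, LNCaP95 and 22Rv1. At the low end stood SARS2, with 3.75 ± 0.219 in LNCaP and 2.13 ± 0.403 in LNCaP95, and TARSL2, a cytosolic paralogue of TARS, with 2.95 ± 0.308 in 22Rv1.

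**Figure D1:**
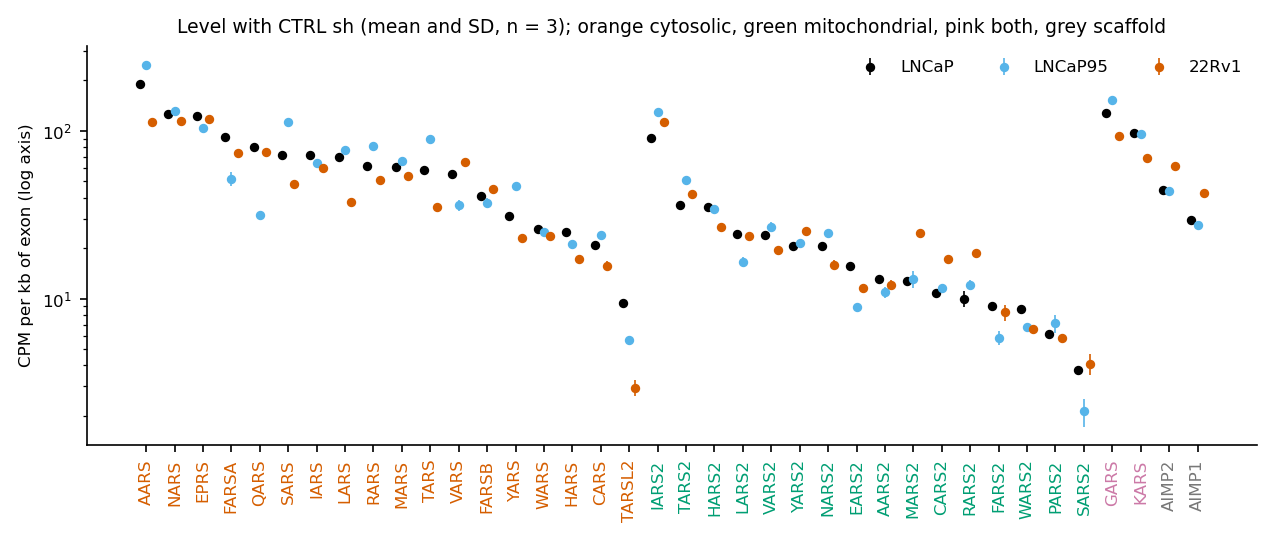
Level of each synthetase gene in CTRL sh libraries of the 3 lines, as CPM per kilobase of exon on a log axis, with the mean (point) and SD (bar) of 3 libraries. Cytosolic genes sit mostly above mitochondrial genes, IARS2 lies among the cytosolic levels, and the 22Rv1 points of TARSL2 and LARS fall well below those of LNCaP.

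The lines also differed from each other before any knockdown. Between LNCaP95 and LNCaP controls, 8 cytosolic genes were higher and 8 lower in LNCaP95, as were 4 and 6 mitochondrial genes, beside 38.8% of all genes higher and 37.2% lower. The widest gap in that comparison was QARS, the glutaminyl enzyme, at -1.35 ± 0.043 (log2 difference ± SE, edgeR's quasi-likelihood test with Benjamini-Hochberg adjusted p = 1.05e-21). In 22Rv1 against LNCaP, 15 of 19 cytosolic genes were lower and 2 higher, where 39.5% of all genes were lower and 39.2% higher. Mitochondrial genes divided evenly in that comparison, with 6 higher and 5 lower. Against LNCaP95, 12 cytosolic genes were lower and 5 higher in 22Rv1, and 9 mitochondrial genes were higher and 6 lower, with 40.7% of all genes called in each direction. TARSL2, a paralogue of the threonyl enzyme TARS, was lower in 22Rv1, with a log2 difference of -1.68 from LNCaP and -0.94 from LNCaP95. MARS2, the mitochondrial methionyl enzyme, went the other way, with 0.95 and 0.92.

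CPSF1 knockdown raised some synthetase genes and lowered others in every line. The comparison set 6 CPSF1 sh libraries against 3 CTRL sh libraries within each line, and a call without a named hairpin refers to it. In LNCaP95, 11 of 19 cytosolic genes fell and 6 rose, whereas 7 of 16 mitochondrial genes rose and 3 fell, with 33.7% of all genes called lower and 33.2% called higher. In LNCaP, 5 cytosolic genes rose and 5 fell, and 7 mitochondrial genes rose and 3 fell, beside 31.1% and 31.0% of all genes. In 22Rv1, 9 cytosolic genes fell and QARS alone of them rose, 3 mitochondrial genes rose and 2 fell, and the background was 14.3% lower and 12.7% higher. Cytosolic genes had a median log2 fold change of 0.037 (LNCaP), -0.29 (LNCaP95) and -0.048 (22Rv1). For mitochondrial genes it was 0.039, 0.031 and 0.038, and over all genes it was -0.00036, 0.0013 and -0.0024. Over the 39 genes, 22 were called in LNCaP, 29 in LNCaP95 and 15 in 22Rv1, and EPRS, SARS2 and AIMP1 were called in no line. The share of all genes called in no line is not given here.

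Some of these counts rested on few libraries or on the scaling. In 22Rv1 the count of cytosolic genes that fell went from 9 to 5 without any 1 of the CTRL sh libraries, and the count that rose went from 1 to 2 without CPSF1 sh1 replicate 1 and to 4 without CPSF1 sh1 replicate 3. The count of mitochondrial genes that rose there went from 3 to 0 without CTRL sh replicate 1 or 2 and to 5 without CPSF1 sh1 replicate 3, and the count that fell went from 2 to 1 without CTRL sh replicate 1. The cytosolic median of LNCaP changed sign with sh1 alone, to -0.045. In LNCaP95, scaling by library size alone raised the share of all calls that were higher from 49.6% to 62.2%, and the synthetase genes then stood at 7 higher and 10 lower among cytosolic and 7 higher and 3 lower among mitochondrial ones.

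**Figure D2:**
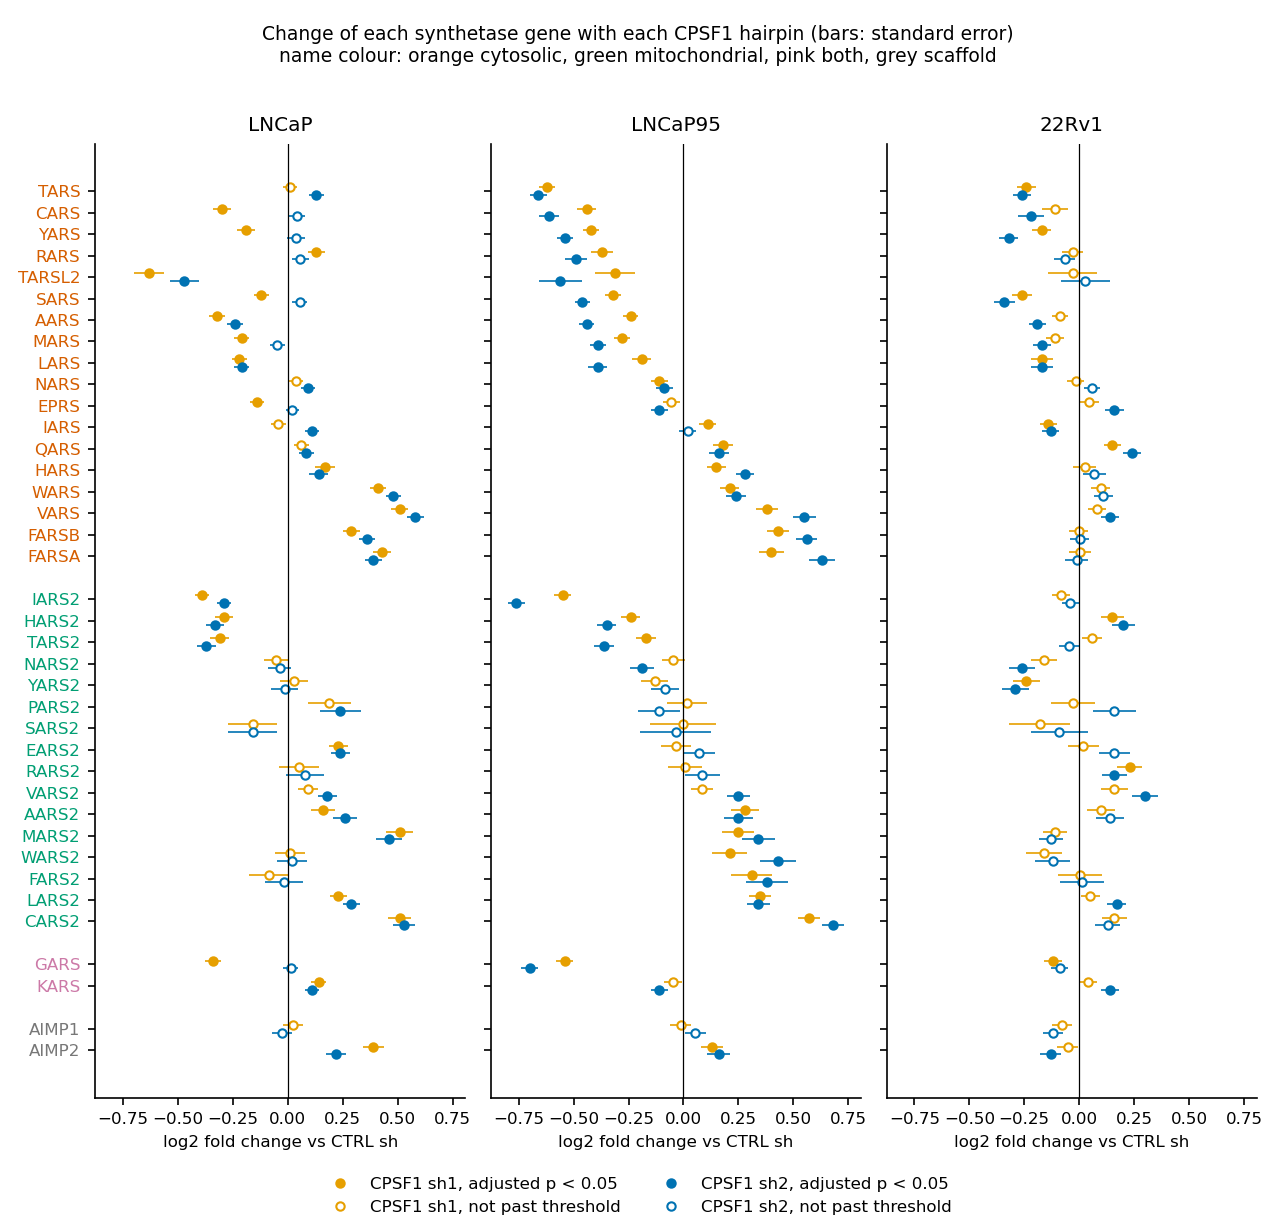
Log2 fold change of 38 of the genes with CPSF1 sh1 and with CPSF1 sh2 against CTRL sh in the 3 lines, with the standard error as bars and filled points for adjusted p below 0.05. Genes are grouped by class and ordered by LNCaP95, where the cytosolic genes spread from TARS at the low end to FARSA at the high end, and the points of 22Rv1 stay closer to 0.

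AARS, LARS and MARS were among the genes that fell in all 3 lines, as did 4.90% of all genes tested in the 3 lines together. AARS, on chr16:70286198-70323446 of GRCh37, attaches alanine and had the most abundant cytosolic mRNA per length in LNCaP and LNCaP95. Its level in LNCaP was 670.1, 638 and 687 CPM with CTRL sh, 554, 525 and 519 with CPSF1 sh1 and 571, 565 and 552 with CPSF1 sh2, with no overlap (-0.28 ± 0.038, adjusted p = 1.59e-05, edgeR). In LNCaP95 it was 886, 868 and 875 CPM with CTRL sh, 747, 739 and 737 with CPSF1 sh1 and 642, 644 and 658 with CPSF1 sh2, where the sh2 libraries were the lowest (-0.34 ± 0.058, adjusted p = 0.000247, edgeR). The 3 control libraries of 22Rv1 lay close together, and all hairpin libraries were below them. They read 394, 395 and 394 CPM with CTRL sh, 370.3, 363 and 380.1 with CPSF1 sh1 and 357, 348 and 335 with CPSF1 sh2 (-0.14 ± 0.042, adjusted p = 0.0268, edgeR). That call was lost without any 1 CTRL sh library or without CPSF1 sh2 replicate 2 or 3, with log2 fold changes of -0.14 to -0.12. LARS, the leucyl enzyme on chr5:145492601-145562223, also serves as a leucine sensor for mTORC1. It measured 344, 340.3 and 345 CPM with CTRL sh, 287, 304 and 294 with CPSF1 sh1 and 296, 290.1 and 304 with CPSF1 sh2 in LNCaP (-0.21 ± 0.031, adjusted p = 3.15e-05, edgeR). In LNCaP95 it measured 362, 399 and 384 CPM with CTRL sh, 324, 349 and 332 with CPSF1 sh1 and 292, 288 and 293 with CPSF1 sh2 (-0.29 ± 0.064, adjusted p = 0.00169, edgeR). In 22Rv1 it measured 188, 178 and 191 CPM with CTRL sh, 170.2, 169.7 and 154 with CPSF1 sh1 and 164, 160.01 and 169 with CPSF1 sh2 (-0.17 ± 0.045, adjusted p = 0.0122, edgeR). No CPSF1 sh library overlapped the controls for LARS in any line, although the 22Rv1 call was lost without CTRL sh replicate 1 (-0.16) or 3 (-0.15).

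MARS, the methionyl enzyme on chr12:57869228-57911352, showed a less even pattern than AARS and LARS. In LNCaP it measured 292, 294 and 301 CPM with CTRL sh, 259.8, 246 and 259.8 with CPSF1 sh1 and 287, 276 and 296 with CPSF1 sh2, so the sh2 libraries overlapped the controls and the fall came with sh1. The pooled call there (-0.13 ± 0.050, adjusted p = 0.0401, edgeR) was lost without any 1 CTRL sh or CPSF1 sh1 library, with log2 fold changes of -0.14 to -0.11. In LNCaP95 the 3 groups were separate, at 326, 323 and 333 CPM with CTRL sh, 272, 264 and 273 with CPSF1 sh1 and 246, 253 and 249 with CPSF1 sh2 (-0.33 ± 0.045, adjusted p = 3.15e-05, edgeR). In 22Rv1 the values were 268, 261 and 261 CPM with CTRL sh, 238, 249 and 247 with CPSF1 sh1 and 225, 232 and 245 with CPSF1 sh2, without overlap (-0.14 ± 0.042, adjusted p = 0.0256, edgeR), and the call was lost without any 1 CTRL sh library or without CPSF1 sh2 replicate 1 or 2, at -0.14 to -0.12. Over all 39 genes, the 6 CPSF1 sh libraries lay wholly on one side of the controls for 22 genes in LNCaP (background 55.6%), 29 in LNCaP95 (60.0%) and 21 in 22Rv1 (28.2%).

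**Figure D3:**
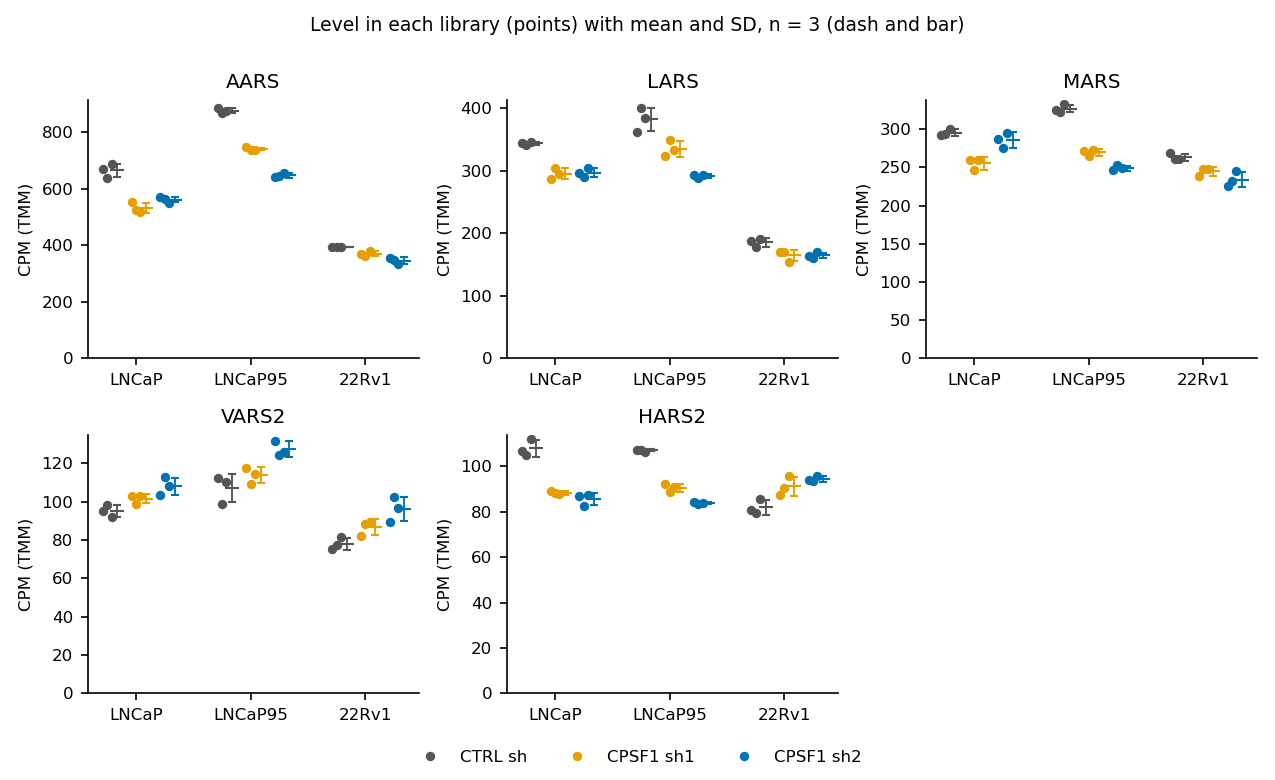
CPM in each library (points) with the mean and SD of 3 (dash and bar) for 5 genes called in all 3 lines with the hairpins pooled. AARS and LARS are lower with both hairpins in each line, MARS is lower as well except that its sh2 libraries in LNCaP overlap the controls, VARS2 is higher with the hairpins pooled but did not pass the test with sh1 alone, and HARS2 is lower in LNCaP and LNCaP95 and higher in 22Rv1.

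Most other cytosolic falls were seen in LNCaP95. TARS, the threonyl enzyme, measured 478, 492 and 488 CPM with CTRL sh, 307, 326 and 319.5 with CPSF1 sh1 and 308, 306 and 310.2 with CPSF1 sh2 there, a clear separation (-0.64 ± 0.037, adjusted p = 6.57e-08, edgeR). In LNCaP the same gene measured 314, 316 and 303 CPM with CTRL sh, 315, 318 and 308 with CPSF1 sh1 and 342, 333 and 349.5 with CPSF1 sh2, which overlapped (0.075 ± 0.042, adjusted p = 0.135, edgeR), and the effects in the 2 lines differed by -0.69 ± 0.052 (adjusted p = 8.36e-12, edgeR). TARS also fell in 22Rv1, from 183, 193 and 189 CPM with CTRL sh to 161, 156 and 159 with sh1 and 161, 155 and 157 with sh2 (-0.25 ± 0.039, adjusted p = 0.000432, edgeR). RARS, the arginyl enzyme of the complex, measured 182, 193 and 195 CPM with CTRL sh, 140.4, 156 and 144 with CPSF1 sh1 and 138, 126 and 140.2 with CPSF1 sh2 in LNCaP95 (-0.43 ± 0.057, adjusted p = 3.32e-05, edgeR). Its values overlapped in LNCaP, at 146, 136 and 143 CPM with CTRL sh, 157, 155 and 156 with CPSF1 sh1 and 149.9, 142 and 151 with CPSF1 sh2, and the difference between the lines was -0.50 ± 0.067 (adjusted p = 3.79e-07, edgeR). In 22Rv1 the log2 fold change of RARS was -0.048, which did not pass the test.

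GARS, whose single gene supplies glycyl-tRNA synthetase to cytosol and mitochondria, measured 419.7, 444 and 439 CPM with CTRL sh, 292, 304 and 302 with CPSF1 sh1 and 264, 274 and 263 with CPSF1 sh2 in LNCaP95 (-0.62 ± 0.054, adjusted p = 1.23e-06, edgeR). In LNCaP it measured 365, 341 and 367 CPM with CTRL sh, 281, 288 and 277 with CPSF1 sh1 and 369.9, 351 and 362 with CPSF1 sh2, so that the sh1 libraries lay below the controls (-0.34 ± 0.037 for that hairpin) and the sh2 libraries overlapped them (0.013 ± 0.035). The effects in these lines differed by -0.45 ± 0.10 (adjusted p = 0.00048, edgeR). SARS, the seryl enzyme, measured 174, 178 and 188 CPM with CTRL sh, 152, 144 and 155 with CPSF1 sh1 and 144, 142 and 140.5 with CPSF1 sh2 in 22Rv1, the largest fall of a cytosolic gene in that line (-0.30 ± 0.046, adjusted p = 0.000432, edgeR), and it fell in LNCaP95 as well (-0.39). CARS (cysteinyl) and YARS (tyrosyl) fell in LNCaP95, by 0.52 and 0.48, and in 22Rv1, by 0.16 and 0.24. In LNCaP neither passed the test with the hairpins pooled, with -0.11 and -0.070. TARSL2 measured 38.95, 42.5 and 40.1 CPM with CTRL sh, 26.00, 27.9 and 24.6 with CPSF1 sh1 and 29.3, 28.7 and 30.1 with CPSF1 sh2 in LNCaP (-0.54 ± 0.066, adjusted p = 6.16e-06, edgeR). It fell in LNCaP95 too (-0.43), and in 22Rv1, where the controls were at 11.2, 13.8 and 13.2 CPM, the groups overlapped and the effect was smaller than in LNCaP by 0.55 ± 0.14 (adjusted p = 0.00178, edgeR). IARS (isoleucyl) fell in 22Rv1 alone (-0.13), and NARS (asparaginyl) in LNCaP95 alone (-0.097). The NARS call was lost without any 1 CPSF1 sh1 library, CTRL sh replicate 2 or 3 or CPSF1 sh2 replicate 2 or 3 (-0.10 to -0.082), and the IARS call without CTRL sh replicate 2 (-0.13) or 3 (-0.13). In 22Rv1 the CARS call was lost without CTRL sh replicate 1 or 2, CPSF1 sh1 replicate 1 or 2, or any 1 CPSF1 sh2 library (-0.17 to -0.11).

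A smaller set of cytosolic genes rose, and it was led by VARS and the phenylalanyl enzyme. VARS, the valyl enzyme, measured 257, 256 and 278 CPM with CTRL sh, 387, 385 and 355 with CPSF1 sh1 and 393, 392 and 394 with CPSF1 sh2 in LNCaP (0.55 ± 0.041, adjusted p = 4.70e-08, edgeR). It rose in LNCaP95 as well (0.47 ± 0.067) and stood at 0.11 ± 0.040 in 22Rv1, where it did not pass the test although no library overlapped. FARSA and FARSB encode the catalytic and the other subunit of phenylalanyl-tRNA synthetase, which works as a tetramer of both. FARSA measured 119, 99.4 and 117 CPM with CTRL sh, 150.3, 139.6 and 152 with CPSF1 sh1 and 168, 175 and 176 with CPSF1 sh2 in LNCaP95 (0.51 ± 0.083, adjusted p = 0.000138, edgeR). In LNCaP it rose from 195, 195 and 194 CPM to 275, 269 and 246 with sh1 and 263, 255 and 249.97 with sh2 (0.41 ± 0.039, adjusted p = 4.71e-07, edgeR). FARSB rose beside it, by 0.49 in LNCaP95 and 0.32 in LNCaP. In 22Rv1 the FARSA values overlapped, at 158, 157 and 157 CPM with CTRL sh, 147, 159 and 167 with CPSF1 sh1 and 156, 163 and 149 with CPSF1 sh2, and the effect differed from that in LNCaP95 by -0.52 ± 0.088 (adjusted p = 1.31e-05, edgeR). The ratio of FARSA to FARSB per exon length was 2.25 ± 0.0624 in LNCaP controls, 2.49 ± 0.0706 with sh1 and 2.31 ± 0.0733 with sh2 (SD, n = 3), and in LNCaP95 it was 1.41 ± 0.231, 1.37 ± 0.0798 and 1.47 ± 0.0658. WARS (tryptophanyl) and HARS (histidyl) also rose in LNCaP, by 0.45 and 0.15, and in LNCaP95, by 0.23 and 0.21. QARS rose in LNCaP95 (0.17) and in 22Rv1, where it measured 251, 249 and 251 CPM with CTRL sh, 270.1, 274 and 290.3 with CPSF1 sh1 and 297, 293 and 296 with CPSF1 sh2 (0.19 ± 0.042, adjusted p = 0.00397, edgeR).

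In LNCaP and in LNCaP95, 7 mitochondrial synthetase genes rose and 3 fell. CARS2, the mitochondrial cysteinyl enzyme, rose most in both lines. It measured 50.9, 54.00 and 49.9 CPM with CTRL sh, 76.5, 76.8 and 75.9 with CPSF1 sh1 and 80.2, 83.7 and 83.5 with CPSF1 sh2 in LNCaP95 (0.62 ± 0.054, adjusted p = 1.13e-06, edgeR). In LNCaP it measured 47.7, 49.2 and 46.3 CPM with CTRL sh, 66.3, 71.6 and 65.1 with CPSF1 sh1 and 68.02, 70.2 and 68.8 with CPSF1 sh2 (0.52 ± 0.047, adjusted p = 2.65e-07, edgeR). MARS2 measured 35.4, 37.6 and 39.8 CPM with CTRL sh, 51.2, 53.2 and 55.8 with CPSF1 sh1 and 49.9, 52.4 and 53.4 with CPSF1 sh2 in LNCaP, a separation without overlap (0.48 ± 0.055, adjusted p = 2.64e-06, edgeR). In 22Rv1, where controls were higher, MARS2 measured 73.98, 70.2 and 73.8 CPM with CTRL sh, 67.1, 69.2 and 65.6 with CPSF1 sh1 and 63.6, 69.4 and 66.03 with CPSF1 sh2, all hairpin libraries below the controls, with -0.12 ± 0.048 that did not pass the test. The difference of these effects was -0.59 ± 0.082 (adjusted p = 1.74e-06, edgeR). AARS2 (alanyl) and LARS2 (leucyl) rose in LNCaP, by 0.21 and 0.26, and in LNCaP95, by 0.27 and 0.35. EARS2 (glutamyl) and PARS2 (prolyl) rose in LNCaP alone, by 0.23 and 0.22, and FARS2 (phenylalanyl) and WARS2 (tryptophanyl) in LNCaP95 alone, by 0.34 and 0.32. The PARS2 call was lost without CTRL sh replicate 1 or 2, CPSF1 sh1 replicate 2 or CPSF1 sh2 replicate 2 (0.18 to 0.21).

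VARS2, the mitochondrial valyl enzyme on chr6:30881982-30894236, was the only synthetase gene that rose in all 3 lines, as did 3.85% of all genes. In LNCaP it measured 95.5, 98.5 and 92.00 CPM with CTRL sh, 103, 99.03 and 103 with CPSF1 sh1 and 103, 113 and 108 with CPSF1 sh2 (0.14 ± 0.045, adjusted p = 0.0148, edgeR). In LNCaP95 it measured 113, 99.02 and 110.2 CPM with CTRL sh, 118, 109 and 115 with CPSF1 sh1 and 132, 124 and 126 with CPSF1 sh2, with overlap between sh1 and the controls (0.17 ± 0.064, adjusted p = 0.0344, edgeR). In 22Rv1 it measured 75.1, 77.2 and 81.6 CPM with CTRL sh, 81.9, 88.6 and 89.7 with CPSF1 sh1 and 89.7, 102 and 96.9 with CPSF1 sh2 (0.23 ± 0.065, adjusted p = 0.0166, edgeR). Its call was lost in LNCaP without CTRL sh replicate 3, in LNCaP95 without any 1 of CTRL sh replicates 2 and 3 or of the CPSF1 sh2 libraries, in 22Rv1 without CTRL sh replicate 1 or 2, and in each line with sh1 alone, and the log2 fold change then ranged from 0.087 to 0.23. VARS2 begins 99 bases past the annotated end of GTF2H4 on the same strand. The log2 fold changes of GTF2H4 were -0.034, 0.22 and 0.14 in LNCaP, LNCaP95 and 22Rv1, and only the LNCaP95 value passed the test. VARS begins 1443 bases past LSM2, which was at 0.10, 0.38 and -0.0036 in that order and passed in LNCaP95 alone. QARS begins 2926 bases past USP19, which was at 0.22, 0.025 and 0.22 and passed in LNCaP and 22Rv1. Upstream of MARS, GLI1 was below the filter, and upstream of IARS, NOL8 passed in no line. A link between such neighbours was not tested.

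IARS2, TARS2 and HARS2 made up the mitochondrial falls of LNCaP and LNCaP95. IARS2 measured 551, 548 and 509 CPM with CTRL sh, 361, 375 and 365 with CPSF1 sh1 and 317, 321 and 314 with CPSF1 sh2 in LNCaP95 (-0.65 ± 0.063, adjusted p = 2.61e-06, edgeR). It fell in LNCaP as well (-0.34), whereas in 22Rv1 its values overlapped, at 456, 461 and 461 CPM with CTRL sh, 457, 432 and 412 with CPSF1 sh1 and 443, 447 and 449 with CPSF1 sh2, and the effect differed from that in LNCaP95 by 0.58 ± 0.072 (adjusted p = 1.21e-07, edgeR). TARS2, the mitochondrial threonyl enzyme, measured 97.5, 94.7 and 98.2 CPM with CTRL sh, 75.97, 78.2 and 80.2 with CPSF1 sh1 and 73.96, 72.9 and 77.4 with CPSF1 sh2 in LNCaP (-0.34 ± 0.041, adjusted p = 4.65e-06, edgeR) and fell in LNCaP95 by 0.26. Only 1 member was called in opposite directions, and the share of all genes so called is not given here. That member was HARS2, the mitochondrial histidyl enzyme on chr5:140071011-140078889. It measured 107, 105 and 112 CPM with CTRL sh, 89.04, 88.2 and 87.6 with CPSF1 sh1 and 86.9, 82.7 and 87.3 with CPSF1 sh2 in LNCaP (-0.31 ± 0.039, adjusted p = 7.15e-06, edgeR). In LNCaP95 it measured 107, 107 and 106 CPM with CTRL sh, 92.2, 88.6 and 91.00 with CPSF1 sh1 and 84.4, 83.6 and 83.7 with CPSF1 sh2 (-0.29 ± 0.046, adjusted p = 0.000122, edgeR). In 22Rv1 all hairpin libraries were above the controls, at 80.7, 79.5 and 85.8 CPM with CTRL sh, 87.4, 90.4 and 95.8 with CPSF1 sh1 and 93.8, 93.3 and 95.9 with CPSF1 sh2 (0.18 ± 0.049, adjusted p = 0.0149, edgeR), and the effect differed from that in LNCaP by 0.50 ± 0.061 (adjusted p = 1.95e-07). The call in 22Rv1 was lost without CTRL sh replicate 1 (0.17) or 2 (0.16). HARS and HARS2 lie head to head with overlapping starts on opposite strands, and HARS2 overlaps ZMAT2 on its own strand, where fragments may not be assigned. In the same way HARS overlaps DND1, SARS2 overlaps FBXO17 and another annotated locus, and MARS2 overlaps another annotated locus. YARS2 measured 52.6, 51.7 and 54.2 CPM with CTRL sh, 44.6, 44.6 and 45.00 with CPSF1 sh1 and 42.03, 46.6 and 41.1 with CPSF1 sh2 in 22Rv1 (-0.26 ± 0.055, adjusted p = 0.00291, edgeR), NARS2 fell there by 0.21 and RARS2 rose by 0.19. The NARS2 call was lost without CTRL sh replicate 1 (-0.15), and the RARS2 call without CTRL sh replicate 1 (0.19) or 2 (0.18).

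Where a cytosolic and a mitochondrial enzyme serve the same amino acid, they could be compared as 17 pairs, in which EPRS is used for EARS2 and for PARS2 and FARS2 is used for FARSA and for FARSB. The cytosolic log2 fold change was below that of its mitochondrial partner in 7 pairs in LNCaP, 11 in LNCaP95 and 12 in 22Rv1. Both partners were called in 5 pairs in LNCaP, and 4 of these moved in opposite directions: AARS fell while AARS2 rose, LARS fell while LARS2 rose, MARS fell while MARS2 rose, and HARS rose while HARS2 fell. LNCaP95 had 10 such pairs and 5 opposite ones, the same 4 with CARS and CARS2 added, of which the cytosolic enzyme was the falling partner in 4. In 22Rv1 both partners were called in 1 pair, YARS and YARS2, which fell together. Over all genes, 31.1%, 33.2% and 12.7% rose and 31.0%, 33.7% and 14.3% fell in LNCaP, LNCaP95 and 22Rv1. With rises and falls that evenly divided, opposite directions are common between any 2 called genes. The MARS call in LNCaP was also lost without any 1 CTRL sh or CPSF1 sh1 library, and with sh2 alone (-0.047).

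**Figure D4:**
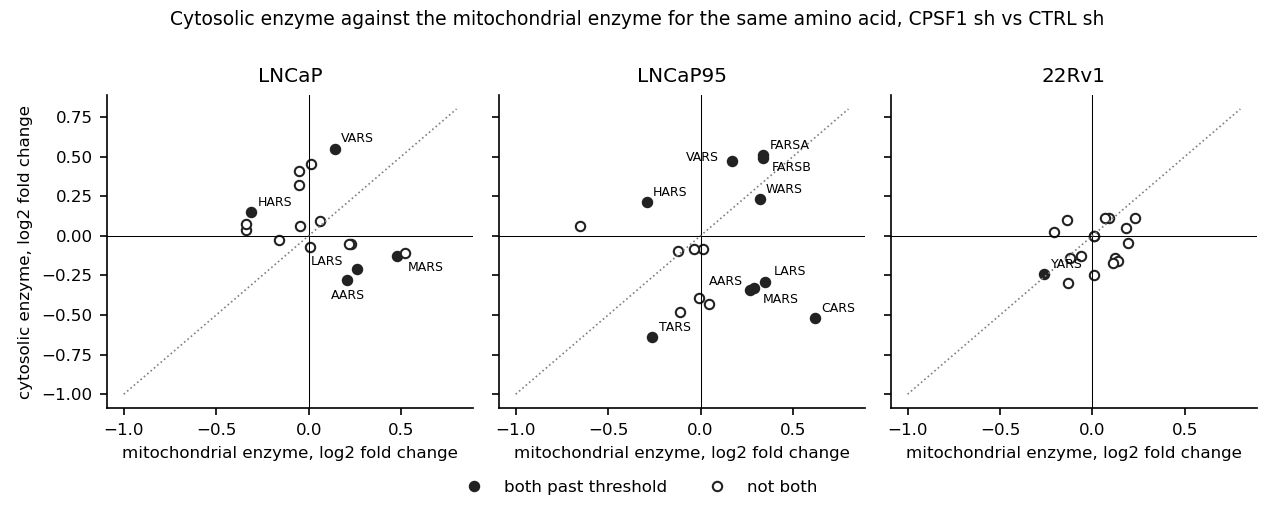
Log2 fold change (CPSF1 sh against CTRL sh) of each cytosolic enzyme against that of the mitochondrial enzyme for the same amino acid in the 3 lines, with filled, named points where both passed the test and a dotted line of equal change. In LNCaP95 AARS, LARS, MARS and CARS lie at the lower right, where the cytosolic enzyme fell and the mitochondrial one rose.

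The mean log2 CPM over each class was computed per library and set against the control mean of its line. The cytosolic mean in LNCaP95 was -0.12 ± 0.0034 with sh1 and -0.18 ± 0.0022 with sh2 (SD, n = 3), and no hairpin library overlapped the controls, whose SD was 0.013. In 22Rv1 it was -0.064 ± 0.0052 and -0.074 ± 0.0094, also without overlap. In LNCaP the hairpins parted, with -0.032 ± 0.018 for sh1 and 0.059 ± 0.016 for sh2. Mitochondrial means stayed between -0.0025 (22Rv1, sh1) and 0.068 (LNCaP, sh2). The cytosolic minus mitochondrial difference was lowest in LNCaP95, at -0.18 ± 0.014 with sh1 and -0.24 ± 0.012 with sh2. It was -0.062 ± 0.037 and -0.10 ± 0.039 in 22Rv1, and -0.074 ± 0.028 and -0.0084 ± 0.023 in LNCaP. These class means are a description of the libraries, since the genes of a class are not independent.

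**Figure D5:**
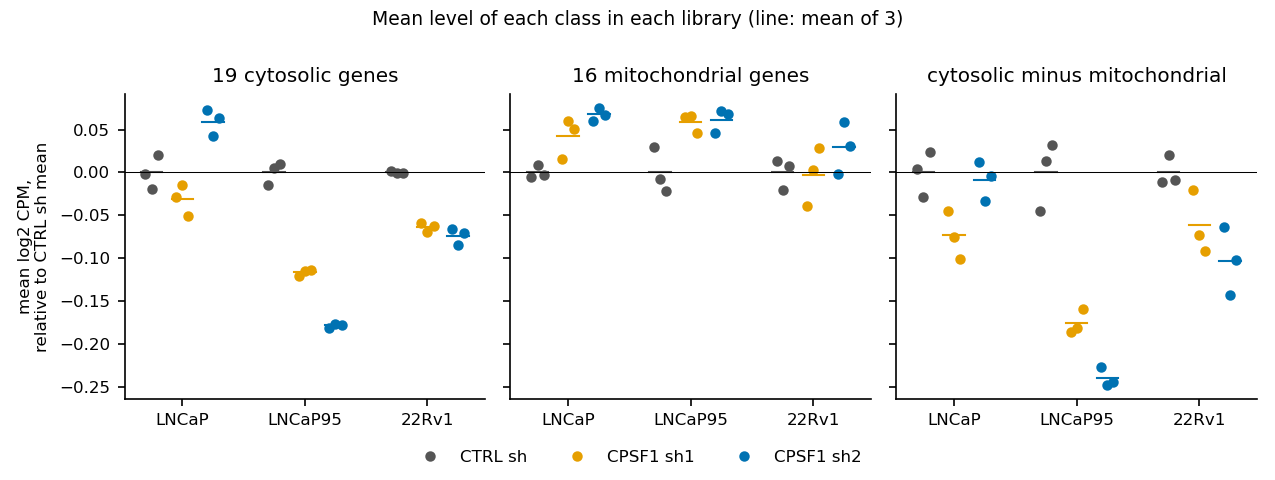
Mean log2 CPM of the 19 cytosolic genes, of the 16 mitochondrial genes and their difference in each library, relative to the CTRL sh mean of the line, with a line at the mean of 3. The cytosolic points of LNCaP95 and 22Rv1 lie below the controls with both hairpins, and in LNCaP the sh1 points lie lower than the sh2 points.

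Each hairpin was also compared with CTRL sh on its own. In LNCaP, 26 of the 39 genes were called with sh1 (background 62.6%) and 25 with sh2 (64.6%). In LNCaP95 these were 29 (66.4%) and 32 (73.4%), and in 22Rv1 11 (19.9%) and 20 (40.0%). Tested directly, sh2 differed from sh1 in 10 genes in LNCaP, where 14.8% of all genes differed. Of the cytosolic genes, 7 were higher with sh2 and none lower: CARS (0.34), YARS (0.23), SARS (0.17), MARS (0.17), EPRS (0.16), IARS (0.15) and TARS (0.12), with GARS at 0.36 and IARS2 at 0.10 beside them and AIMP2 lower with sh2 (-0.17). CARS, with the largest cytosolic difference, measured 113, 118 and 121 CPM with CTRL sh, 93.8, 95.4 and 97.1 with CPSF1 sh1 and 121, 119 and 121 with CPSF1 sh2. It fell with sh1 (-0.30 ± 0.041) and did not pass the test with sh2 (0.040 ± 0.039).

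In LNCaP95, 18 genes were called between the hairpins (background 34.1%), and 8 cytosolic genes were lower with sh2, among them TARSL2 (-0.26) and LARS (-0.20), while FARSA (0.23), VARS (0.17), FARSB (0.13) and HARS (0.13) were higher. This count was 9 without CPSF1 sh2 replicate 1 and 11 without CPSF1 sh2 replicate 3. CPSF1 itself stood at 61.3 CPM with sh1 and 61.5 with sh2 in that line, against 114 in controls. In 22Rv1 only YARS was called between the hairpins (-0.15, background 11.3%), and leaving out single libraries gave 0 to 3 genes, with 0 without CTRL sh replicate 2, CPSF1 sh1 replicate 2 or any 1 of the CPSF1 sh2 libraries, 2 without CPSF1 sh1 replicate 1 and 3 without CPSF1 sh1 replicate 3.

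The effect of the knockdown was compared between lines in a fit of all 27 libraries. Between LNCaP95 and LNCaP, 15 of the 39 genes differed in effect (50.9% of all genes did). Of the cytosolic genes, 9 had a lower (more negative) log2 fold change in LNCaP95 and 1, FARSB, a higher one. Between 22Rv1 and LNCaP, 17 differed (40.4%), and between 22Rv1 and LNCaP95, 27 (53.7%). In the last comparison 10 cytosolic genes had a higher log2 fold change in 22Rv1 and 6 a lower one. FARSA, FARSB and VARS were foremost among the lower ones, with differences of -0.52, -0.50 and -0.36. These comparisons share control libraries with each other and with the tests within lines.

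The multi-synthetase complex comprised 10 of the 39 genes. Its 7 purely cytosolic enzymes (LARS, MARS and QARS among them) had 3 falls and no rise in LNCaP, 4 falls and 1 rise in LNCaP95, and 4 falls and 1 rise in 22Rv1. The 12 cytosolic genes outside it had 2 falls and 5 rises in LNCaP, 7 and 5 in LNCaP95, and 5 and none in 22Rv1. Over all genes, the falls made up 31.0%, 33.7% and 14.3% and the rises 31.1%, 33.2% and 12.7% in the order of these lines. KARS, the lysyl enzyme of the complex that also serves mitochondria, measured 260.2, 263 and 255 CPM with CTRL sh, 288, 291 and 279 with CPSF1 sh1 and 282, 278 and 278 with CPSF1 sh2 in LNCaP (0.12 ± 0.031, adjusted p = 0.00329, edgeR). In LNCaP95 its log2 fold change was -0.079, which did not pass the test, and its effects in these lines differed by -0.18 ± 0.052 (adjusted p = 0.00396, edgeR). AIMP2 measured 82.5, 78.5 and 78.5 CPM with CTRL sh, 103, 103 and 108 with CPSF1 sh1 and 97.5, 93.7 and 87.6 with CPSF1 sh2 in LNCaP (0.31 ± 0.059, adjusted p = 0.000398, edgeR). It rose in LNCaP95 as well, from 75.5, 82.2 and 80.5 CPM to 85.3, 84.95 and 89.7 with sh1 and 85.7, 87.03 and 92.2 with sh2 (0.14 ± 0.047, adjusted p = 0.0195, edgeR), a call that was lost without CTRL sh replicate 1 (0.10). AIMP1 was at -0.0011 in LNCaP, 0.019 in LNCaP95 and -0.097 in 22Rv1 and the related complex gene EEF1E1 at 0.11, 0.13 and -0.066, none of which passed.

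Several of the cytosolic genes that fell carry a C/EBP-ATF response element core near the start site. The core TGATGNAA, or TTNCATCA on the other strand, was searched on both strands of RefSeq windows from 250 bases before to 50 bases after the start (GRCh38.p14, a build other than that of the counts), and the motif was chosen with the results known. It was found in 4.46% of 27305 genes with a window, in 6 of the 14 cytosolic genes that have one (42.9%), in 1 of 14 mitochondrial genes (7.14%) and in GARS, and in neither scaffold. LARS, VARS, VARS2 and YARS were among the 7 genes with no window. The 8 matches are shown with the core in capitals, read along the strand of the gene, each in a stretch of 30 bases.
AARS (chr16:70289675-70289704, minus strand): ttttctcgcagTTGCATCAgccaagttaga
CARS (chr11:3057407-3057436, minus strand): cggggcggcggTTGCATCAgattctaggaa
IARS (chr9:92293692-92293721, minus strand): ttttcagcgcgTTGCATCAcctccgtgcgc
MARS (chr12:57488053-57488082, plus strand): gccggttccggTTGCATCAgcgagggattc
NARS (chr18:57621804-57621833, minus strand): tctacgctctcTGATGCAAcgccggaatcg
TARS (chr5:33440956-33440985, plus strand): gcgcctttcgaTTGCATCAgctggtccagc
GARS (chr7:30594834-30594863, plus strand): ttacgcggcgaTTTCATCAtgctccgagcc
YARS2 (chr12:32756076-32756105, minus strand): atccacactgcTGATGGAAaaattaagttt
The cytosolic cores all read TTGCATCA on one strand or the other, and those of CARS, MARS, IARS, NARS and TARS begin within 14 bases of the start, whereas that of AARS lies 187 bases before it. Of the 8 genes, none rose in any line with the hairpins pooled. With sh2 alone in LNCaP, IARS (0.11), NARS (0.091) and TARS (0.13) rose, as did IARS with sh1 alone in LNCaP95 (0.11). In LNCaP 2 fell (AARS and MARS), in LNCaP95 6 fell and in 22Rv1 6 fell. Of the other 24 genes with a window, 11 rose and 3 fell in LNCaP, 11 rose and 5 fell in LNCaP95, and 3 rose and 2 fell in 22Rv1. Genes with and without the core differ in class, so the cytosolic genes were also split. With the hairpins pooled, the 6 with the core had no rise, and 2, 5 and 5 falls in LNCaP, LNCaP95 and 22Rv1. The 8 with a window and no core had 4, 5 and 1 rises and 0, 2 and 1 falls. Cytosolic genes without a window, among them LARS, YARS, TARSL2 and VARS, are outside this split. LARS fell in all 3 lines, YARS in LNCaP95 and 22Rv1, and TARSL2 in LNCaP and LNCaP95. VARS rose in LNCaP and LNCaP95. Over all genes, 31.1%, 33.2% and 12.7% rose and 31.0%, 33.7% and 14.3% fell. A match is a description of the letters in the window, and no binding was measured. Whether the core has a part in the changes was not tested.

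Genes of the amino acid response were taken as a list of ATF4 targets and partners outside the synthetase family. Of 29 such genes, 15 fell and 4 rose in LNCaP, 24 fell and 3 rose in LNCaP95, and 17 fell and 2 rose in 22Rv1, with median log2 fold changes of -0.19, -0.61 and -0.22. Of all genes, 31.0%, 33.7% and 14.3% fell and 31.1%, 33.2% and 12.7% rose. ATF5, a relative of ATF4, rose in LNCaP (0.66) and LNCaP95 (0.51). ATF4 fell by 0.35, 0.63 and 0.31, and ASNS, the asparagine synthetase, by 0.27, 0.61 and 0.31. The largest changes of the list in LNCaP95 were in NUPR1 (-1.88), CHAC1 (-1.83) and DDIT3 (-1.44). In LNCaP, NUPR1 rose (0.33), CHAC1 fell (-0.81) and DDIT3 did not pass the test (0.10). In 22Rv1, NUPR1 fell (-0.34), and CHAC1 (-0.50) and DDIT3 (-0.057) did not pass. Between the hairpins in LNCaP, 15 genes of this list were higher with sh2 and 2 lower, and in LNCaP95 none was higher and 20 were lower, where 14.8% and 34.1% of all genes differed in either direction.

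Among 20 other genes of mitochondrial translation (elongation and initiation factors, tRNA modifiers and the amidotransferase subunit QRSL1), 13 rose and 3 fell in LNCaP, 9 rose and 4 fell in LNCaP95, and 1 rose and 3 fell in 22Rv1. The share of all genes that rose was 31.1%, 33.2% and 12.7% in these lines, and the share that fell 31.0%, 33.7% and 14.3%, so the 22Rv1 falls, among others, were near it. QRSL1 rose in LNCaP (0.54), LNCaP95 (0.39) and 22Rv1 (0.24). Of the other amidotransferase subunits, PET112 (GATB) rose in LNCaP (0.16) and LNCaP95 (0.30) and did not pass the test in 22Rv1 (-0.018). GATC passed in no line, at 0.052, -0.062 and -0.17 in LNCaP, LNCaP95 and 22Rv1. TUFM, the mitochondrial elongation factor Tu, rose in LNCaP (0.15) and stood at -0.079 and 0.066 in LNCaP95 and 22Rv1, where it did not pass the test. Of 9 cytosolic elongation and tRNA partner genes, 2 rose and 1 fell in LNCaP, 2 rose and 3 fell in LNCaP95, and 2 fell in 22Rv1, beside the same shares of all genes.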

How the data were processed

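Counts were deposited by the authors as 1 table of raw fragment counts per gene, without normalization, for 27 libraries made with a stranded mRNA kit. Per the paper's methods, reads were aligned to hg19 with HISAT2 (2.1.0) and counted on exons in reverse-stranded mode with Subread featureCounts (2.0.3 in the submitters' processing notes) and the Ensembl 87 annotation of GRCh37. Whether duplicates or multiply mapped fragments were removed is not given in the sources used here, so paralogues such as TARS and TARSL2 could exchange reads. Each count column was assigned to its sample by title. Replicate libraries of a group differed by a chi-square per degree of freedom of 1.39 to 7.31, where counting error alone gives about 1.

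Genes above 2 CPM in every library of a line were normalized by TMM and tested in edgeR 4.0.16 (R 4.3.3) with the quasi-likelihood F-test in its legacy form, 3 CTRL sh against 6 CPSF1 sh libraries per line, with Benjamini-Hochberg adjustment over all genes tested (11096, 11143 and 11728 genes) and a threshold of 0.05. Hairpins were compared in fits of 3 groups per line, and lines in a fit of 27 libraries and 10317 genes. The standard error is the log2 fold change divided by the square root of F. The fit was also run on simulated data with few changed genes and no difference between the hairpins, so that setting differed from these data. Alternatives were RLE, library size alone, DESeq2 1.42.0, a newer edgeR fit, other filters, averaged or single hairpins, a replicate block and leaving out each library. CPM is on the TMM scale of its line, and RPKM on that of all 27 libraries. The members and lists were chosen with earlier results of these data known. Values in every library are given for members called alike in all lines, the largest called rise and fall per class and line, and the 3 largest differences in effect per pair of lines. One gene of the family, which enters the counts, class means and medians, is not reported here. CARS in LNCaP was added after its values were seen. Genes without a RefSeq window were left out of the motif search.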

Additional observations from a re-analysis of the deposited data

Results flagged for a closer look

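The effect of CPSF1 knockdown on 8 named synthetase genes differed between lines by the test of the difference itself, an interaction term fitted over 27 libraries in edgeR with Benjamini-Hochberg adjustment (log2 difference of effects ± SE). In LNCaP95 relative to LNCaP these were TARS (-0.69 ± 0.052, adjusted p = 8.36e-12), RARS (-0.50 ± 0.067, adjusted p = 3.79e-07) and GARS (-0.45 ± 0.10, adjusted p = 0.00048), all lower in LNCaP95. In 22Rv1 relative to LNCaP they were MARS2 (-0.59 ± 0.082, adjusted p = 1.74e-06), TARSL2 (0.55 ± 0.14, adjusted p = 0.00178) and HARS2 (0.50 ± 0.061, adjusted p = 1.95e-07). In 22Rv1 relative to LNCaP95 they were IARS2 (0.58 ± 0.072, adjusted p = 1.21e-07) and FARSA (-0.52 ± 0.088, adjusted p = 1.31e-05). They were picked from the 3 largest per pair of lines among all called differences.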

How the results depend on the processing

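Of 66 member calls in the 3 lines, 16 were lost under at least 1 setting (15 of them with 1 library left out) and 0 changed direction. Normalization by RLE and edgeR's newer quasi-likelihood fit moved no class count by over 1.5 times and no class median beyond the spread between replicates. In LNCaP the count of cytosolic genes that rose went from 5 to 8 with the hairpins averaged and to 9 with sh2 alone, the count that fell went from 5 to 9 with sh1 alone, and the cytosolic median from 0.037 to 0.011 with no filter and, with its sign changed, to -0.045 with sh1 alone. In LNCaP95 the cytosolic median of -0.29 was -0.20 by library size alone, -0.33 with filterByExpr, -0.33 with no filter, -0.19 with sh1 alone and -0.39 with sh2 alone, the count of mitochondrial genes that fell went from 3 to 5 with filterByExpr and 5 with no filter, and the mitochondrial median from 0.031 to 0.12 by library size alone. In 22Rv1 the count of cytosolic genes that rose, 1, was 3 by library size alone, 2 in DESeq2, 4 with the hairpins averaged and 4 with sh2 alone, the count that fell was 5 with sh1 alone, and the cytosolic median -0.022 with sh1 alone. There the mitochondrial rises, 3, were 5 with the hairpins averaged, 1 with sh1 alone and 7 with sh2 alone, the falls were 1 with sh1 alone, and the median 0.071 with sh2 alone. The call of YARS between hairpins in 22Rv1 was absent in DESeq2 (0 genes). Apart from settings that use fewer libraries, the cause was not tested. Leaving out 1 library gave, in LNCaP, 5 to 6 cytosolic rises, 4 to 5 falls and medians of 0.013 to 0.055 (mitochondrial 6 to 7, 3 to 3 and 0.016 to 0.072). In LNCaP95 it gave 6 to 6, 10 to 11 and -0.32 to -0.25 (6 to 7, 3 to 4 and 0.010 to 0.12). In 22Rv1 it gave 1 to 4, 5 to 9 and -0.092 to -0.038 (0 to 5, 1 to 2 and 0.026 to 0.064). Between hairpins it gave 7 to 10 genes in LNCaP, 9 to 21 in LNCaP95 and 0 to 3 in 22Rv1. The line comparisons gave 14 to 17, 14 to 17 and 23 to 28 genes for effects and 24 to 29, 31 to 33 and 35 to 37 for control levels. In LNCaP95, same-numbered libraries correlated from -0.2311 to 0.2727 and other pairs from -0.2842 to 0.2233. In 22Rv1 the ranges were -0.1093 to 0.1948 and -0.2757 to 0.2516, so replicate numbers showed no clear pairing in these lines. In LNCaP, 3 of 9 same-numbered pairs were above 0.1 (-0.057 to 0.242), against 0 of 18 other pairs (-0.2388 to 0.0663). Some pairing is therefore possible in LNCaP. With the replicate number as a block, 22, 28 and 13 members were called in LNCaP, LNCaP95 and 22Rv1 in place of 22, 29 and 15. The calls of MARS in LNCaP (with 1 other gene called instead), NARS in LNCaP95, and AARS and CARS in 22Rv1 were lost under the block.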
